A study of Mus musculus with 6 samples.

Results

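In all, 10 genes of the TGF-beta and activin system, of the 55426 features in the deposited table, were followed in pancreatic stellate cells (PSCs) kept at 21% or 1% O2. They were the TGF-beta isoforms Tgfb1, Tgfb2 and Tgfb3, the receptors Tgfbr1 and Tgfbr2, the inhibin subunits Inha, Inhba and Inhbb, the antagonist Fst and the divergent ligand Gdf15, each found by the Ensembl identifier that GENCODE M21 gives for its symbol. PSCs are fibroblast precursors, here isolated as early-passage primary lines from the pancreas of adult wild-type C57BL/6 mice. They were seeded in Matrigel in a transwell insert above organoids of mT3, a PDAC (pancreatic ductal adenocarcinoma) line from a genetically engineered mouse. Both groups were cocultured with mT3 organoids for 48 hours, 3 samples under normoxia (21% O2) and 3 under hypoxia (1% O2), and RNA of the PSCs was sequenced. The labels do not say whether the samples of a group came from separate PSC lines, so p-values measure the spread between these samples, which may be technical. Without a group of PSCs kept alone in these data, a response to oxygen and a response to hypoxic tumor cells cannot be told apart.

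TGF-beta is secreted in a latent form, held by its own propeptide and by binding proteins, and signals once released through a complex of the type II receptor TGFBR2 and the type I receptor TGFBR1 to SMAD2 and SMAD3. In pancreatic cancer it is known for driving stellate cells toward the myofibroblastic CAF (myCAF) state. Activins are dimers of the beta subunits encoded by Inhba and Inhbb, and reach the same SMADs through their own receptors. The alpha subunit encoded by Inha pairs with a beta subunit to form an inhibin, which blocks activin receptors, and follistatin, the product of Fst, binds activin and keeps it from its receptors. GDF15 is a distant relative of the family, a stress-induced cytokine whose receptor GFRAL is known from the hindbrain.

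Library totals ran from 24749601 to 31925054 expected counts, and all 8 genes of a hypoxia check list, Vegfa and Car9 among them, were called higher at 1% O2. The deposited values are the authors' RSEM expected counts, and levels are given below as CPM (counts scaled to a library of 1000000, with library sizes adjusted by the TMM method). A gene was called higher or lower at a fold change beyond 1.5 with an adjusted p under 0.05 from edgeR's quasi-likelihood test across 16207 genes with Benjamini-Hochberg adjustment, and SE below is the standard error on the log2 scale. By this rule 34.2% of all tested genes were called, 18.9% higher and 15.3% lower. All 10 genes of the TGF-beta and activin group passed the filter on low counts, and 5 of them were called, 3 higher and 2 lower. With so few genes, 5 of 10 cannot be read as apart from the background share. Normoxic and hypoxic samples did not overlap for 7 of the 10, 5 of them above and 2 below. Of all tested genes 68.9% had groups that did not overlap, 34.9% above and 34.0% below. The median log2 fold change of the 10 genes was 0.25, against -0.004 over all tested genes.

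The defining fibroblast genes were abundant, with a summed level of 10 markers from 18550 to 23500 CPM in normoxic and from 18930 to 21430 in hypoxic PSCs, most of it from the collagen genes Col1a1 and Col1a2. Of these markers 2 were called higher (Pdgfra and Pdpn, 1.76-fold and 1.98-fold) and 2 lower (Lum and Thy1, 4.49-fold and 2.01-fold). Of 10 macrophage and leukocyte markers 0 were called higher and 6 lower, and their summed level was 890 to 1567 CPM in normoxic and 447 to 802 CPM in hypoxic samples. In bulk RNA, fewer cells of a type and less RNA per cell cannot be told apart. Of 8 epithelial markers, Esrp1 was at 0 in every sample, and Epcam, Cdh1, Krt8 and Krt18 had between 0 and 6 counts per sample. The summed level of the epithelial list was 0.835 to 2.27 CPM in normoxic and 21.1 to 24.7 CPM in hypoxic samples, of which Krt19 made up 0.715 ± 0.297 and 22.1 ± 1.66 CPM (SD, n = 3 each). The 6 endothelial markers summed to 9.98 to 15.9 CPM and 15.0 to 21.4 CPM, with Tek called higher and Kdr lower. The 5 mesothelial markers summed to 21.1 to 28.9 CPM and 40.6 to 42.1 CPM, nearly all of it Wt1, which was called higher. Msln, Upk3b, Lrrn4 and Upk1b had between 0 and 16 counts per sample and were not tested. Each of these had a lower mean in hypoxic samples.

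**Figure D1:**
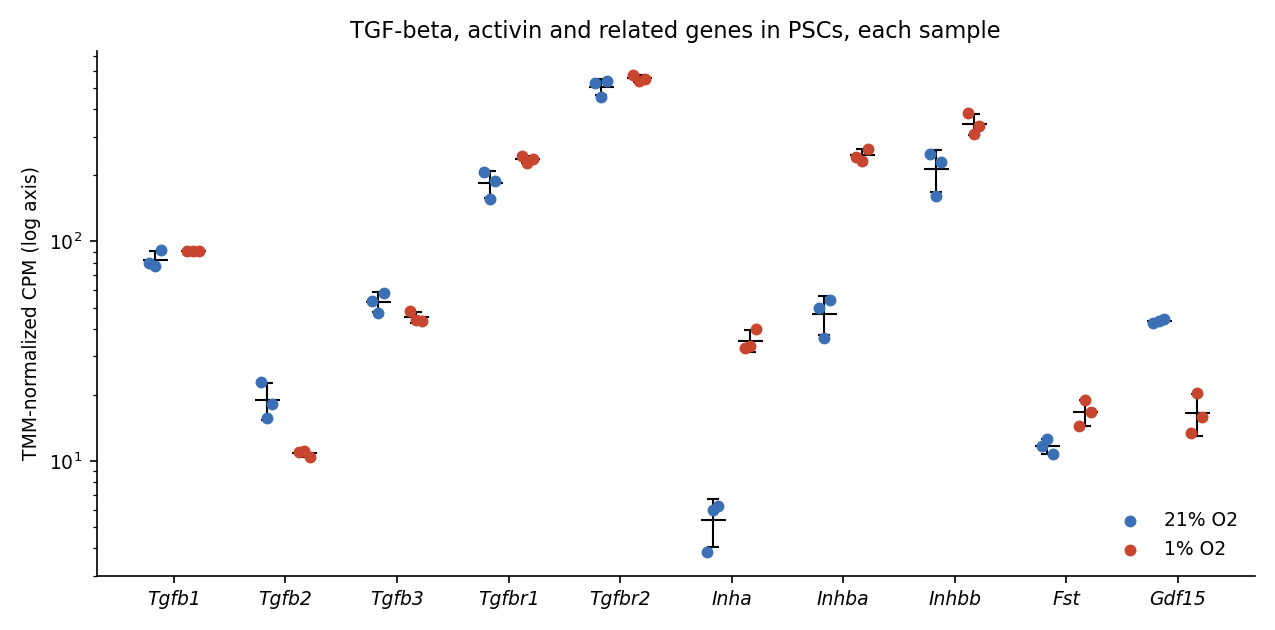
TMM-normalized CPM (log axis) of the 10 genes in each of the 6 samples, with blue points for 21% O2, red points for 1% O2, a black bar for the mean and whiskers for the SD (n = 3). The 3 hypoxic samples lay above all normoxic samples for Inha, Inhba, Inhbb, Tgfbr1 and Fst, and below them for Tgfb2 and Gdf15.

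The inhibin and activin subunits rose together in hypoxic PSCs, and Inha and Inhba changed most among the 10 genes. Inhba (ENSMUSG00000041324; GRCm38 chromosome 13, 16011851 to 16031621, plus strand), which encodes the beta A subunit of activin A, was at 49.9, 36.2 and 54.2 CPM in normoxic and 243, 233 and 265 CPM in hypoxic samples, in the order of replicates 1 to 3. The hypoxic samples thus lay far above the normoxic samples, with no overlap. The log2 fold change was 2.40 (edgeR adjusted p = 9.24e-07, SE 0.13), a 5.28-fold rise, and 2.65% of tested genes had a higher log2 fold change. Leaving out single replicates moved it between 2.24 and 2.51. With a mean of 147 CPM over the 6 samples, Inhba was more abundant in counts than 92.1% of tested genes.

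Inha (ENSMUSG00000032968; chromosome 1, 75507077 to 75510366, plus strand), the alpha subunit of the inhibins, was counted 100, 158 and 154 times in normoxic and 830, 1045 and 1276 times in hypoxic samples. These counts correspond to 3.85, 6.00 and 6.25 CPM and to 32.6, 33.4 and 40.1 CPM. The lowest hypoxic sample was far above the highest normoxic one, and the log2 fold change was 2.72 (edgeR adjusted p = 1.39e-06, SE 0.16), a 6.60-fold rise. Inha had the largest fold change of the 10 genes but was the least abundant of them in normoxic CPM.

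Inhbb (ENSMUSG00000037035; chromosome 1, 119415465 to 119422248, minus strand), the beta B subunit, was already abundant under normoxia, at 250, 162 and 230 CPM, and reached 383, 310 and 335 CPM under hypoxia. The groups did not overlap, but they were separated by less than the spread within normoxia, in which replicate 2 was lowest. Its log2 fold change of 0.68 (edgeR adjusted p = 0.00312, SE 0.15), a factor of 1.60, was close to the fold change threshold. Without normoxic replicate 2 it was 0.51 and no longer passed that threshold, at an adjusted p of 0.000989 from edgeR.

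Because Inhba and Inha rose more than Inhbb, the make-up of the subunit transcripts shifted, which was examined after the values were seen and is given as a description. Levels per length, that is CPM per kb of annotated exon, were used for this, since only these can be compared between genes. Inhbb made up 85.0%, 79.6% and 81.0% of the summed level per length of the 3 subunits in normoxic samples and 60.0%, 55.3% and 53.4% in hypoxic samples. The Inhba share was 11.3%, 11.9% and 12.7% under normoxia and 25.3%, 27.6% and 28.1% under hypoxia. For Inha the share was 3.77%, 8.52% and 6.34%, against 14.7%, 17.1% and 18.4%. Thus in every hypoxic sample a smaller part of the subunit RNA came from Inhbb than in any normoxic sample, although Inhbb remained the most abundant of them. Summed over the subunits, the level per length was 61.3 ± 11.8 CPM per kb in normoxic and 143 ± 9.81 CPM per kb in hypoxic PSCs (SD, n = 3 each). The ratio of Inha to the summed beta subunits per length was 0.0667 ± 0.0270 and 0.202 ± 0.0270 (SD, n = 3 each), so beta subunit transcripts outnumbered alpha subunit transcripts in all 6 samples.

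Of the TGF-beta isoforms, Tgfb2 fell and Tgfb1 and Tgfb3 were not called. Tgfb2 (ENSMUSG00000039239; chromosome 1, 186622792 to 186705989, minus strand) gave 23.0, 15.8 and 18.2 CPM in normoxic and 10.96, 11.1 and 10.4 CPM in hypoxic samples. Hypoxic samples lay close together and below every normoxic sample, and the log2 fold change was -0.81 (edgeR adjusted p = 6e-04, SE 0.13), a level 1.76-fold lower. Leaving out each replicate gave values from -0.94 to -0.66.

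Tgfb1 (ENSMUSG00000002603; chromosome 7, 25687002 to 25705077, plus strand), the isoform best known from fibrosis, was at 80.0, 77.2 and 91.0 CPM in normoxic and 90.4, 90.1 and 90.2 CPM in hypoxic samples. The groups overlapped, and its log2 fold change of 0.13 (SE 0.07) did not pass (adjusted p = 0.127 from edgeR). Without normoxic replicate 3 it was 0.19, at an adjusted p of 0.0218 from edgeR, and still under the fold change threshold. Macrophages also express Tgfb1, and their markers were lower in the hypoxic samples, as given above, but their part in this value was not tested. Tgfb3 (ENSMUSG00000021253; chromosome 12, 86056745 to 86079041, minus strand) gave 53.6, 47.4 and 58.3 CPM and at 48.3, 44.0 and 43.6 CPM. Its groups overlapped as well, and a log2 fold change of -0.23 (edgeR adjusted p = 0.0334, SE 0.08) stayed short of the fold change threshold. With each replicate left out the adjusted p of Tgfb3 from edgeR ran from 0.00345 to 0.12. In the annotation, exons of Tgfb2 and Tgfb3 overlap short genes on the opposite strand (124 bp shared with Gm29491, 163 bp with Gm37804 and 257 bp with Gm48008), which were assigned between 0 and 1 counts in every sample.

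Within the isoforms, the share of Tgfb1 in the summed level per length was 44.5%, 47.8% and 47.0% in normoxic and 52.6%, 54.5% and 54.9% in hypoxic samples. The Tgfb3 share was 44.4%, 43.7% and 44.8%, against 41.9%, 39.7% and 39.6%, and the Tgfb2 share 11.1%, 8.49% and 8.19%, against 5.55%, 5.85% and 5.50%. Groups did not overlap for any of these shares. A two-sided exact permutation test gave p = 0.1 for each share, the smallest value that 3 samples against 3 allow (adjusted p = 0.1 over the 3 shares and the ratio of Inhba to Fst). The summed level of the isoforms was 35.4 ± 3.20 CPM per kb in normoxic and 33.2 ± 0.837 CPM per kb in hypoxic PSCs (SD, n = 3 each), with overlapping samples. These shares depend on the length assigned to each gene, since the exons of Tgfb1 cover 5042 bp together but its longest transcript has 2573 bp. With the longest transcript as the length, the Tgfb1 share was 62.4% ± 1.72 in normoxic and 69.4% ± 1.05 in hypoxic samples, and the Tgfb3 share 30.4% ± 0.579 and 26.5% ± 1.06 (SD, n = 3 each). The like share of Tgfb1 and Tgfb3 in normoxic PSCs thus held for the length of all exons and not for that of the longest transcript. The difference in the Tgfb1 share between groups was 6.98 percentage points, against 7.60 with all exons.

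**Figure D2:**
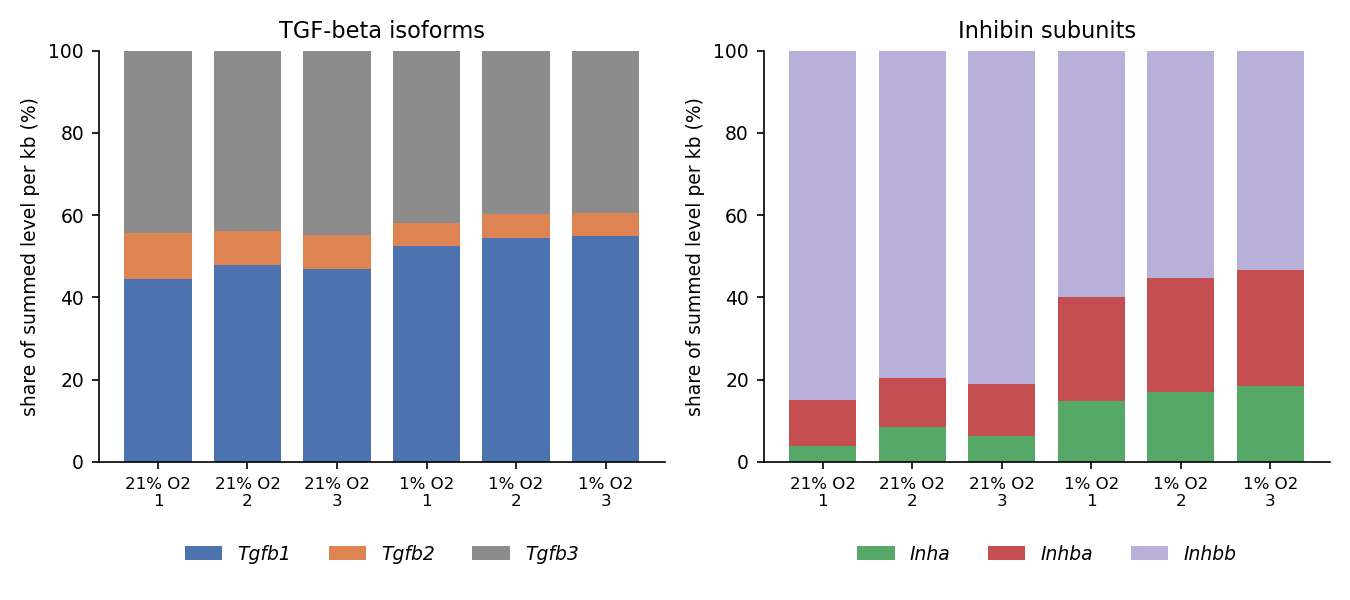
Share of each gene in the summed level per kb of all exons (percent, 0 to 100) in each of the 6 samples, for the TGF-beta isoforms (left) and the inhibin subunits (right). Tgfb1 was 44.5% to 47.8% of the isoforms at 21% O2 and 52.6% to 54.9% at 1% O2, while Inhbb went from at least 79.6% of the subunits to at most 60.0%.

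Both TGF-beta receptors were abundant in normoxic PSCs and neither was called. Tgfbr2 (ENSMUSG00000032440; chromosome 9, 116084293 to 116175360, minus strand), the type II receptor that binds the ligand, was at 527, 457 and 539 CPM in normoxic and 576, 538 and 548 CPM in hypoxic samples. The groups overlapped, with a log2 fold change of 0.12 (edgeR adjusted p = 0.165, SE 0.07). Tgfbr1 (ENSMUSG00000007613; chromosome 4, 47353222 to 47414931, plus strand), the type I receptor kinase that phosphorylates SMAD2 and SMAD3, was at 208, 156 and 188 CPM and at 245, 229 and 238 CPM. Here every hypoxic sample was above every normoxic one, and the log2 fold change of 0.37 (edgeR adjusted p = 0.00801, SE 0.10) passed the p threshold but not the fold change of 1.5.

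Fst (ENSMUSG00000021765; chromosome 13, 114452290 to 114458951, minus strand), which encodes follistatin, was at 11.6, 12.6 and 10.7 CPM in normoxic and 14.5, 19.0 and 16.7 CPM in hypoxic samples. The groups did not overlap, and the log2 fold change was 0.52 (edgeR adjusted p = 0.00329, SE 0.11), a factor of 1.44 and so just under the threshold. Without hypoxic replicate 1, the lowest of its group, it was 0.62 and passed (adjusted p = 0.00185 from edgeR). Exons of Fst share 115 bp with Gm47040 on the opposite strand, which had between 0 and 1 counts per sample.

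The ligand subunit Inhba thus changed more than the antagonist Fst, and their ratio was compared in each sample. Inhba over Fst, both per length, was 3.08, 2.07 and 3.63 in normoxic and 12.05, 8.80 and 11.4 in hypoxic samples. Normoxic and hypoxic samples did not overlap, and the mean log2 ratio went from 1.51 ± 0.42 to 3.41 ± 0.24 (SD, n = 3 each), a difference of 1.90 (two-sided exact permutation p = 0.1, the smallest possible here). The ratio does not depend on how libraries are scaled. For Fst, whose longest transcript has 2921 bp of the 4589 bp of annotated exons, the length changes the ratio but not its difference between groups, which was 1.90 with either length. Leaving out single replicates moved this difference between 1.67 and 2.08.

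Fstl3, the follistatin-like protein that also binds activins, was at 24.2, 19.8 and 24.7 CPM in normoxic and 113, 104 and 105 CPM in hypoxic samples. It rose 4.70-fold (edgeR adjusted p = 1.2e-07, SE 0.09 around a log2 fold change of 2.23), and counts of Fstl3 per count of Fst went from 1.57 to 2.31 in normoxic to 5.50 to 7.84 in hypoxic samples. The rise of Inhba was of like size, 5.28-fold. The ratio above thus covers Inhba and Fst only, and no ratio to Fstl3 or with Inhbb was taken.

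Gdf15 (ENSMUSG00000038508; chromosome 8, 70629393 to 70632456, minus strand) fell most among the 10 genes. It was at 42.5, 43.4 and 44.1 CPM in normoxic and 13.4, 20.5 and 15.9 CPM in hypoxic samples. The normoxic samples were nearly equal and all well above the highest hypoxic sample. Its log2 fold change was -1.38 (edgeR adjusted p = 1.95e-05, SE 0.13), a level 2.604-fold lower, and 4.3% of tested genes had a lower value. Leaving out single replicates moved it between -1.57 and -1.25. The macrophage and leukocyte markers were lower under hypoxia as well, by the summed levels given above. Among the normoxic samples, the highest and the lowest sum of these markers differed by a factor of 1.76, and those of Gdf15 by a factor of 1.04. Among hypoxic samples the factors were 1.79 and 1.53, and replicate 2 was highest in both. The part of these cells in the Gdf15 values was not tested. Gfral, the gene of the GDF15 receptor, had 0 counts in every sample, which allows at most 0.0943 to 0.122 CPM at 3 counts per library. Such limits cover counting error only.

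**Figure D3:**
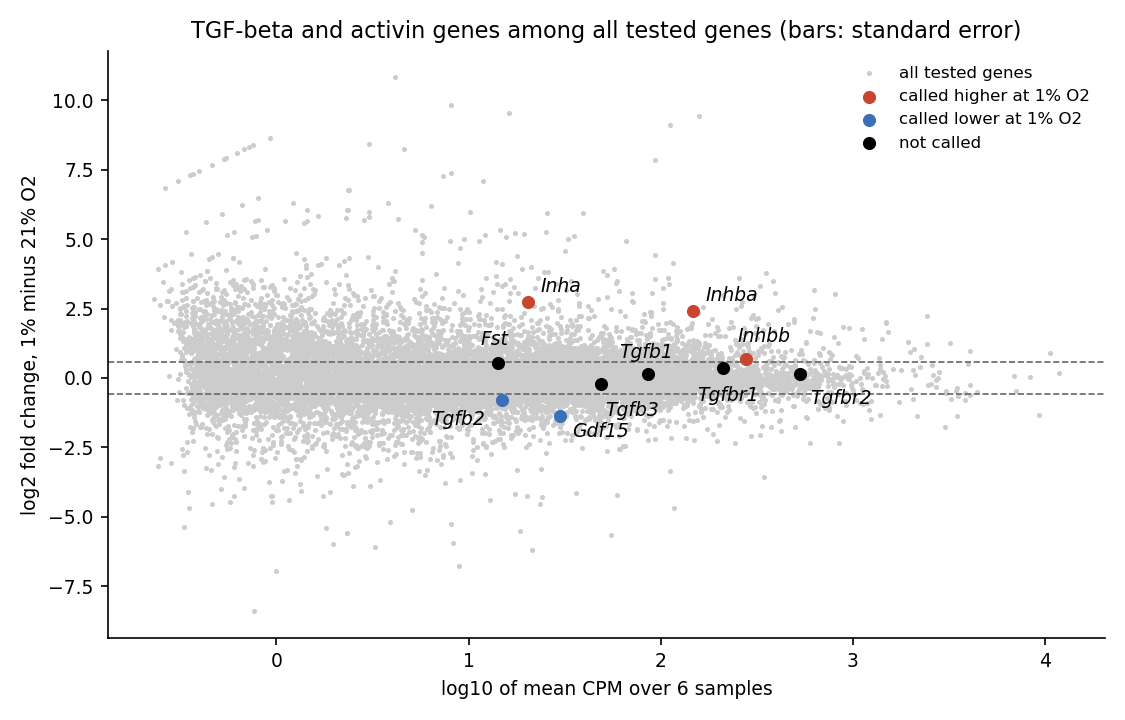
Log2 fold change (1% minus 21% O2) against log10 of the mean CPM for all 16207 tested genes (grey) and the 10 TGF-beta and activin genes (red called higher, blue called lower, black not called), with standard errors that are mostly smaller than the points and dashed lines at a fold change of 1.5. Inha (2.72) and Inhba (2.40) lay high above the upper dashed line, and Tgfb1, Tgfb3, Tgfbr1, Tgfbr2 and Fst lay between the dashed lines.

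Ordered by level per length, normoxic PSCs held most RNA of Tgfbr2 (62.1 ± 5.42 CPM per kb) and Inhbb (50.3 ± 10.9), whose samples overlapped. They were followed by Tgfbr1 (28.1 ± 4.02) and Gdf15 (23.4 ± 0.433). Tgfb1 (16.4 ± 1.45) and Tgfb3 (15.7 ± 1.61) overlapped with this length, and Inhba (7.32 ± 1.47), Inha (3.64 ± 0.894), Tgfb2 (3.28 ± 0.635) and Fst (2.53 ± 0.202) were lowest (SD, n = 3 each). Inha overlapped Tgfb2 and Tgfb2 overlapped Fst at the low end, whereas the highest Gdf15 sample (23.81 CPM per kb) lay just below the lowest Tgfbr1 sample (23.82). In hypoxic PSCs the order was led by Inhbb (80.6 ± 8.69 CPM per kb), with every sample above those of Tgfbr2 (67.7 ± 2.42). Inhba (38.6 ± 2.602) and Tgfbr1 (36.3 ± 1.25) came next and overlapped, followed by Inha (24.0 ± 2.80), Tgfb1 (17.9 ± 0.0368) and Tgfb3 (13.4 ± 0.772). Gdf15 (8.95 ± 1.94), Fst (3.64 ± 0.494) and Tgfb2 (1.87 ± 0.0670) were lowest (SD, n = 3 each). Inhba moved from place 7 to place 3 and Inha from place 8 to place 5, while Gdf15 went from place 4 to place 8. Taking the longest transcript as the length placed Tgfb1 at 32.1 and 35.1 CPM per kb, place 3 in normoxic and place 5 in hypoxic PSCs. With that length Inhba moved from place 7 to place 4, Inha from place 10 to place 6 and Gdf15 from place 5 to place 8. Not all of these places are apart. Normoxic samples of Inha, Tgfb2 and Fst overlapped, as did those of Tgfbr1 with Tgfb1 and with Gdf15. Hypoxic samples of Inhba overlapped those of Tgfbr1, and hypoxic samples of Gdf15 those of Tgfb3.

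Beyond the 10 genes, 77 genes of the pathway in 6 lists were read from the same comparison, 68 of which could be tested. Of these, 18 were called higher and 8 lower, 38.2% against the 34.2% over all tested genes. Among 14 genes of TGF-beta latency and activation, 13 were tested, 2 rose and 2 fell, with a median log2 fold change of 0.23. Itgb8, an integrin subunit whose heterodimer with alpha V binds latent TGF-beta and releases its activity, was at 1.85, 2.24 and 2.11 CPM in normoxic and 11.5, 9.83 and 10.8 CPM in hypoxic samples, a 5.16-fold rise (adjusted p = 1.06e-06 from edgeR). Lrrc32, which encodes GARP, a docking protein for latent TGF-beta on the cell surface, rose from 372 ± 74.7 to 685 ± 30.9 CPM (SD, n = 3 each; log2 fold change 0.88, adjusted p = 0.000335 from edgeR). Nrros, a relative of GARP known from macrophages and microglia, fell from 12.03 ± 3.72 to 4.84 ± 1.89 CPM, and Fbn2, a microfibril protein, from 13.5 ± 4.22 to 6.50 ± 0.606 CPM (SD, n = 3 each). Nrros moved beside the macrophage markers, and their part in it was not tested. Itgb6 was not tested, with between 0 and 2 counts per sample.

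**Figure D4:**
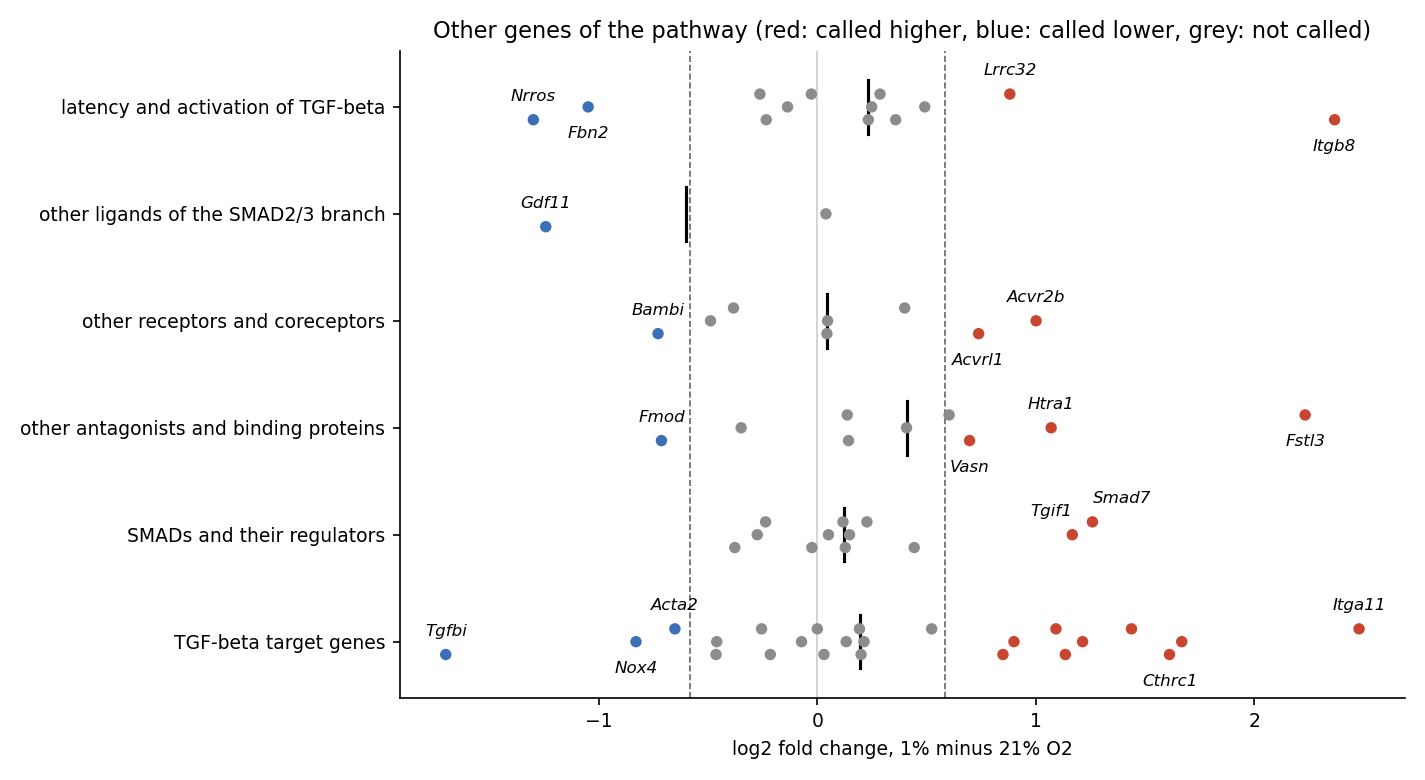
Log2 fold change (1% minus 21% O2) of each tested gene in the 6 other lists of the pathway (red called higher, blue called lower, grey not called), with a black bar at each list's median and dashed lines at a fold change of 1.5. Of the 68 tested genes, 18 were called higher and 8 lower, and Itga11, Itgb8 and Fstl3 lay furthest to the right.

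Of 8 other secreted members of the family on the SMAD2 and SMAD3 branch, 2 were tested. The list holds ligands and also Lefty1 and Lefty2, which are inhibitors of Nodal. Gdf11, a close relative of myostatin, was at 49.2, 40.8 and 46.7 CPM in normoxic and 21.2, 16.2 and 20.4 CPM in hypoxic samples and fell (edgeR adjusted p = 1.42e-05, SE 0.11 around a log2 fold change of -1.24). Lefty1 was at 9.49 ± 0.352 and 9.77 ± 1.38 CPM (SD, n = 3 each) and was not called. Inhbc, Inhbe, Nodal, Gdf3, Mstn and Lefty2 had too few counts to be tested.

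Among 10 other receptors and coreceptors, 8 were tested, 2 rose and 1 fell, and the median log2 fold change was 0.04. Acvr2b, a type II activin receptor, rose from 1.78 ± 0.142 to 3.56 ± 0.121 CPM, and Acvrl1, a type I receptor of the family best known from endothelium, from 67.6 ± 5.18 to 113 ± 2.82 CPM (SD, n = 3 each). Bambi, a decoy receptor without a kinase domain, fell from 12.4 ± 1.53 to 7.47 ± 0.415 CPM (SD, n = 3 each). The other type II activin receptor, Acvr2a, had a log2 fold change of -0.49 and passed the fold change threshold only without hypoxic replicate 1, at -0.61, which made the list's count of lower genes 2. Acvr1c and Gfral were not tested.

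Of 9 other antagonists and binding proteins, all tested, 3 rose and 1 fell, and the median log2 fold change was 0.41. Besides Fstl3, these were Htra1, a secreted protease, from 453 ± 63.8 to 950 ± 66.9 CPM, and Vasn, which encodes the TGF-beta binding protein vasorin, from 139 ± 15.8 to 224 ± 5.95 CPM (SD, n = 3 each). Fmod, a small proteoglycan that binds TGF-beta, fell from 22.3 ± 1.00 to 13.6 ± 1.14 CPM (SD, n = 3 each).

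In the list of 12 SMADs and their regulators 2 genes rose and 0 fell, with a median log2 fold change of 0.12. Smad7, the inhibitory SMAD that is itself induced by the pathway, was at 39.6, 41.0 and 41.9 CPM in normoxic and 84.1, 115 and 93.7 CPM in hypoxic samples (edgeR adjusted p = 1.06e-05, SE 0.11 around a log2 fold change of 1.26). Tgif1, a corepressor of SMAD2 and SMAD3, rose from 39.97 ± 1.72 to 89.7 ± 7.63 CPM (SD, n = 3 each). Smad2, Smad3 and Smad4 had log2 fold changes of -0.38, 0.13 and 0.44.

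The 24 known target genes of TGF-beta were divided, with 9 called higher, 3 lower and 12 not called, and a median log2 fold change of 0.20. Over all tested genes, 18.9% were called higher and 15.3% lower. Many of them also answer to other signals, hypoxia included. Among those that rose were Itga11, a collagen receptor subunit, from 75.01 ± 21.5 to 419 ± 17.1 CPM, and Cthrc1, a secreted glycoprotein, from 12.1 ± 2.17 to 37.0 ± 3.17 CPM (SD, n = 3 each). Tgfbi, named for its induction by TGF-beta, was at 83.7, 88.0 and 94.7 CPM in normoxic and 24.6, 27.99 and 29.2 CPM in hypoxic samples, a level 3.25-fold lower (adjusted p = 2.89e-07 from edgeR). Nox4 fell from 5.79 ± 0.682 to 3.25 ± 0.0687 CPM (SD, n = 3 each). The remaining gene called lower was the myCAF marker Acta2, with a log2 fold change of -0.65 that became -0.53 without normoxic replicate 3 and -0.57 without hypoxic replicate 2, short of the threshold. By quantitative RT-PCR of PSCs cocultured with mT3 organoids, the study found no effect of hypoxia on Acta2. Col1a1, Ccn2 and Pmepa1 had log2 fold changes of 0.03, 0.20 and -0.22 and were not called.

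RefSeq promoters on GRCm38.p6, 250 bases before to 50 bases after a start site, were at hand for 8 of the 10 genes, in 10 windows, and not for Tgfb3 and Fst. The only Inha window (chr1:75507359-75507658) lies within the gene as annotated, as does the Tgfbr1 window at chr4:47385966-47386265. The windows of Inhba and Tgfb2 are shown because these genes were called in opposite directions. They are written on the strand of the gene, with any ACGTG, one form of the core of the hypoxia response element, read on either strand, in capitals. The Inhba window is chr13:16011601-16011900 (plus strand) and the Tgfb2 window is chr1:186705940-186706239 (minus strand).
Inhba: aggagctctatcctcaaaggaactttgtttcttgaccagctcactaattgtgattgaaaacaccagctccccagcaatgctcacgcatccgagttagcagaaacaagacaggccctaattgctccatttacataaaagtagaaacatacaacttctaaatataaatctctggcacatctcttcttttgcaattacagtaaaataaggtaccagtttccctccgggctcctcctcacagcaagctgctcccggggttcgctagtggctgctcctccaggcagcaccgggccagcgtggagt
Tgfb2: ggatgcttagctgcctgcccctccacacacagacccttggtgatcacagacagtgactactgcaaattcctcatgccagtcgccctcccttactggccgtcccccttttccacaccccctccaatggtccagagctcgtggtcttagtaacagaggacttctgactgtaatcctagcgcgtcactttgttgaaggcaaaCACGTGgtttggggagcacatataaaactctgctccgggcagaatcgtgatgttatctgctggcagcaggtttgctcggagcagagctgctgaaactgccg

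No ACGTG stood in the Inhba window, nor in those of Tgfb1, Tgfbr1, Tgfbr2, Inha and Inhbb. The windows were not searched for GCGTG, another form of this core, which the printed Inhba window holds near its end. The Tgfb2 window held ACGTG on both strands in a palindrome that begins 51 bases before the start site. The same palindrome stood 83 bases before a downstream start site of Gdf15, and not in the window of the upstream start site. Of all 32851 promoters of this length, 19.6% held ACGTG on either strand. TGANTCA, the site of AP-1, was in 0 of the 10 windows and in 7.81% of all promoters, and CAGAC, the SMAD box, was in 49.6% of all promoters and in windows of Tgfb2, Tgfbr1, Tgfbr2, Inha and Gdf15. Such matches are a description of letters in a short window and say nothing about binding there.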

How the data were processed

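RNA of PSCs cocultured with mT3 organoids was sequenced in 6 samples, 3 per oxygen level. Per the labels and the methods, reads were trimmed with Cutadapt, mapped to GRCm38 with STAR (2.6.1b) and assigned to genes with RSEM (1.3.1), and the expected counts deposited by the authors were not normalized between samples. All values were whole numbers, so rounding changed nothing. The annotation release and the strand setting are not given in the sources used here. Names, positions and exon lengths came from GENCODE M21 (GRCm38), which held 55240 of the 55426 identifiers.

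edgeR (4.0.16, limma 3.58.1, R 4.3.3) was run on the rounded counts with filterByExpr, TMM scaling and the quasi-likelihood F test, with oxygen as the only term. The standard error is the size of the log2 fold change divided by the square root of F. Fold change (1.5) and adjusted p (0.05) thresholds follow the methods. DESeq2 (1.42.0), limma-voom, other scalings, no filter, other fold thresholds, a replicate block and each replicate left out were alternatives. The fits were tested on simulated data. At these library totals 3 counts correspond to 0.0943 to 0.122 CPM, and such limits cover counting error only. The members and lists were chosen with earlier results of these data known. Named genes are the 10 members and, from each list, up to 3 called genes with the largest rise and up to 3 with the largest fall at a mean of at least 1 CPM, besides marker and check genes and genes named as not called, not tested or changing their call with the processing, which were chosen after their values were seen. One gene that this rule names, and part of the tumor line's genotype, are not reported here. Figures were drawn with matplotlib (3.10.9).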

Additional observations from a re-analysis of the deposited data

How the results depend on the processing

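The thresholds moved the counts most. Without a fold change threshold 10168 genes were called (5150 higher and 5018 lower), 8 of the 10 TGF-beta and activin genes (5 higher) and 47 of the pathway list genes (29 higher and 18 lower). At a fold change of 2 there were 3156 genes (1929 higher and 1227 lower), 3 of the 10 genes (1 lower) and 17 list genes (4 lower). Across the other scalings, the other tools, no filter, the block and each replicate left out, the call by both thresholds together was kept in 118 of 120 cases over the 10 genes, and 0 fold changes reversed. The exceptions were Inhbb without normoxic replicate 2 and Fst without hypoxic replicate 1, given above. The p threshold alone was also crossed by genes under the fold change threshold, by Tgfb1 without normoxic replicate 3 (0.0218) and by Tgfb3 without normoxic replicate 1 or 3 (0.0689 and 0.12) or hypoxic replicate 2 or 3 (0.0869 and 0.107), all adjusted p-values from edgeR. Without the filter on low counts Lefty2 was called higher (log2 fold change 2.72) and Acvr1c lower (-2.25). Lefty2 had counts of 1, 1 and 2 in normoxic and 11, 12 and 10 in hypoxic samples. Acvr1c had 6, 44 and 9 against 5, 5 and 4, so its call rests mostly on normoxic replicate 2. Lrrc15 lost its call without normoxic replicate 2 or 3 or hypoxic replicate 3, while Tagln gained one without normoxic replicate 2 and Aspn without hypoxic replicate 2.

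Samples of both groups carry the replicate numbers 1 to 3, but nothing says that a number marks a shared PSC line. The deviations of same-numbered samples from their group means correlated at 0.22, 0.19 and 0.053 across genes, and 6 of 6 samples correlated best with the sample of their own number, a hint from the data only. With the replicate number as a block 5572 genes were called (3072 higher and 2500 lower), and 5 of the 10 genes and 26 list genes were called, as without it. Replicates of a group differed by more than sampling noise (chi-square per degree of freedom from 4.5 to 16.8). Exact permutation tests of 3 samples against 3 cannot pass 0.05, so the isoform shares and the ratio of Inhba to Fst rest on their spread alone. Levels per length moved by more than 1 SD in 7 of 20 values with the longest transcript as the length.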
